A study of Homo sapiens with 14 samples.

Results

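A list of 36 genes of neuronal adhesion, axon guidance and synaptic release was followed in 22Rv1, a cell line of human prostate cancer, as the pioneer transcription factor FOXA1 was lowered or mutated. The genes were looked up by symbol in the 4 deposited count tables, which together name up to 57905 features, and those to be described in a table were selected on their mean level over its libraries, at least 0.5 CPM (counts-per-million). That threshold left 28 members in the knockdown table, 27 in each table of the degradation time course and 29 in the R219S table. It kept 24 members in all 4 tables and 8 in some of them, and CNTN1, NCAM1, NRXN3 and NRP2 reached it in none. The members nearest to it were ISLR2 at 0.593 CPM and SYT1 at 0.489 CPM in the knockdown table, SYT1 at 0.683 and NRP2 at 0.448 at 1 h, DSCAM at 0.731 and NRP2 at 0.403 at 24 h, and SYT1 at 0.510 and NRXN3 at 0.404 in the R219S table.

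The study holds 14 libraries in 7 groups of 2. One pair of groups is 22Rv1 cells given a control lentivirus (shCtrl) or a lentivirus with a hairpin against FOXA1 (shFOXA1). All the other groups carry FOXA1_dTAG, a degron tag that marks the FOXA1 protein for destruction when the dTAG compound is added, and were sampled at 0 h, 1 h and 24 h, or as WT and R219S. R219S cells carry the FOXA1 mutation of that name, and WT and R219S share the FOXA1_dTAG label with the time course. The labels do not say whether WT and R219S cells were given dTAG or its vehicle, name no vehicle control at 24 h, and do not say whether a line was 1 clone or whether replicates were separate cultures. The p-values therefore measure the spread between these libraries, which may be technical. Titles of the shCtrl libraries call the line 22Rv2, while their cell line label is 22Rv1.

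Neurons recognise each other through cell surface proteins. Immunoglobulin adhesion molecules and protocadherins hold membranes together, neurexins bind neuroligins across the synapse, and Slit, semaphorin and ephrin ligands steer growing axons through Robo, neuropilin and Eph receptors. Synaptotagmins and SNARE proteins then drive the calcium-triggered fusion of vesicles. Many of these genes are also active in epithelia, where guidance ligands and their receptors act on cell contact and migration, and several are used to describe prostate tumours that take on neural traits.

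The promoters of 4 members are shown first. RefSeq windows of 300 bases (250 before and 50 after the start, GRCh38.p14) were matched for 28 members, which had 44 windows. The letters TGTTTAC or TATTTAC, 2 forms of the core bound by forkhead factors such as FOXA1, were searched on both strands. They occurred in 3 of the 44 windows (6.82%) and in 2098 of all 35114 windows (5.97%), so the members' share was close to that of all promoters. One of the 3 belonged to CNTN1, which was below the level threshold throughout. SLITRK6 and SEMA3C are printed because they held the other matches, shown in capitals, and PCDH19 and ISLR2 because they are the members with the largest changes that went one way in all 4 main comparisons. Each runs 5′ to 3′ along the gene's own strand.
SLITRK6, chr13:85799370-85799669, minus strand: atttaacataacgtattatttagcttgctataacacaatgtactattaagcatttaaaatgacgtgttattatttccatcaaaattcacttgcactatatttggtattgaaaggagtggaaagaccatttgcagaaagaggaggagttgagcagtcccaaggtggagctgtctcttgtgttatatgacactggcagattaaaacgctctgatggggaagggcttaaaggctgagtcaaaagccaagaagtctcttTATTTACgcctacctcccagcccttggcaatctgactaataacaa
SEMA3C, chr7:80922340-80922639, minus strand: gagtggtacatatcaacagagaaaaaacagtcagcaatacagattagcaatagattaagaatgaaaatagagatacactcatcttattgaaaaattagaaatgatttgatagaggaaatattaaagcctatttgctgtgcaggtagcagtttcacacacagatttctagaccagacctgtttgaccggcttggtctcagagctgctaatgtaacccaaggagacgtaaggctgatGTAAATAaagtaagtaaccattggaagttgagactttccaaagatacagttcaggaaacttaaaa
PCDH19, chrX:100410224-100410523, minus strand: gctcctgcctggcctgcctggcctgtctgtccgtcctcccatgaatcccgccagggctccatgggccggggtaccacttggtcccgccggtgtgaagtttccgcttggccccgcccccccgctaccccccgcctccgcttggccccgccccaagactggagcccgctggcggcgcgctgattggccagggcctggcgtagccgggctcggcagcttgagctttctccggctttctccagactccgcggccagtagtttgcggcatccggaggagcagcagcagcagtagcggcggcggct
ISLR2, chr15:74129405-74129704, plus strand: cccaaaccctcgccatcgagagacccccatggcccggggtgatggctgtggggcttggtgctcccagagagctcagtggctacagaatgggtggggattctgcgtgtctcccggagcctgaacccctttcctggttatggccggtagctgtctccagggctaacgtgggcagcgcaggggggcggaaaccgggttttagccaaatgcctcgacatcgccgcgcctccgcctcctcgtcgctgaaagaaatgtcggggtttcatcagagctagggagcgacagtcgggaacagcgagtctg
In SLITRK6 the match read TATTTAC on the gene's strand. In SEMA3C, in 1 of its windows, the same letters lay on the opposite strand and so read GTAAATA. The PCDH19 and ISLR2 windows held neither form. A match describes these letters and is no evidence of binding, and its absence says nothing about the factor. Base composition differed widely: GC content was 38.7% in the SLITRK6 window, 36% in the SEMA3C window shown, 62.7% in the ISLR2 window and 71% in the PCDH19 window. Another SEMA3C window, which held no match, had a GC content of 75.7%. The median was 61.7% over member windows and 58.7% over all windows.

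Library totals ran from 21.6 M to 38.5 M counts. FOXA1 transcripts averaged 418 CPM in shCtrl and 302 CPM in shFOXA1 (log2 fold change -0.47 ± 0.06 SE, adjusted p = 0.000275 by edgeR's quasi-likelihood test), and fell by 0.57 in R219S. Their mean was 1025 CPM in WT and 692 CPM in R219S, far above the 170 CPM at dTAG 0 h. Those levels were scaled separately, and the difference was not tested. Over the time course FOXA1 transcripts changed by -0.01 at 1 h (adjusted p = 0.941 in edgeR) and rose by 0.23 at 24 h. This does not check the degradation, since dTAG acts on the protein. The 2 shFOXA1 libraries differed more from each other than those of any other group, with a chi-square per degree of freedom of 11.8 against 2.04 to 4.04. Luminal prostate markers summed to between 2.87e+03 and 8.17e+03 CPM in every library. The 9 neuron markers matched summed to 3.93 to 70.3 CPM, and DCX and STMN2 were at 0 in most groups. MAP2 was expressed, at 48.1 to 49.1 CPM in shCtrl, 28.6 to 30.9 at dTAG 0 h and 14.3 to 15.1 in WT. TUBB3 was at 5.2 to 6.67, 4.44 to 5.16 and 0.882 to 1.31 CPM in the same groups. The 8 neuroendocrine markers summed to 50 to 343 CPM.

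Levels in the 3 control groups were compared between genes as CPM per kilobase of exon. In shCtrl the guidance ligand SEMA3C led at 94.7 CPM per kilobase, followed by SLITRK6 at 62.1, NLGN2 at 21.2 and EPHA7 at 15.0. At dTAG 0 h the order was SEMA3C at 50.1, SYT7 at 31.4, SCGN at 25.8 and NLGN2 at 17.0. In WT it was NLGN2 at 31.9, SYT7 at 20.2, SLITRK6 at 17.0 and NELL2 at 16.6, with SEMA3C at 2.98. The 3 control groups were scaled in separate tables and their differences were not tested. Among the members, each control group was thus led by a few genes, not all of them the same. CHL1, CNTN1, NCAM1 and NRP2 lay at or under 0.0624 CPM per kilobase in each control group.

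The 4 main comparisons were fitted over all genes, and calls were made where the p-value, adjusted by Benjamini-Hochberg over all genes tested, was under 0.05. All adjusted p-values below are from edgeR's quasi-likelihood test, and fold changes are on the log2 scale with their standard errors. In the knockdown, 12 of 32 members tested were called (7 higher, 5 lower), against 23.6% of all genes tested (11.3% higher, 12.3% lower). That count ran from 6, without shCtrl replicate 2, to 19, without shFOXA1 replicate 1. At 1 h it was 14 of 29 (5 higher, 9 lower), against 19.8% of all genes (10.7% higher, 9.12% lower), and DESeq2 or the fit without dTAG 1 h replicate 2 called 9. At 24 h it was 25 of 29 (13 higher, 12 lower), against 46.9% (22.1% higher, 24.8% lower), and in R219S 24 of 30 (15 higher, 9 lower), against 62.1% (30.5% higher, 31.6% lower). The members' median absolute log2 fold change was 0.46, 0.24, 1.03 and 0.98 in that order, and that of all genes was 0.22, 0.14, 0.28 and 0.25. No called member had overlapping groups, and the same held for 99.5% to 100% of all genes called. The list was drawn up with results of these data known, so these counts describe it and support nothing about it. In bulk RNA, fewer cells expressing a gene and less RNA per cell cannot be told apart.

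**Figure D1:**
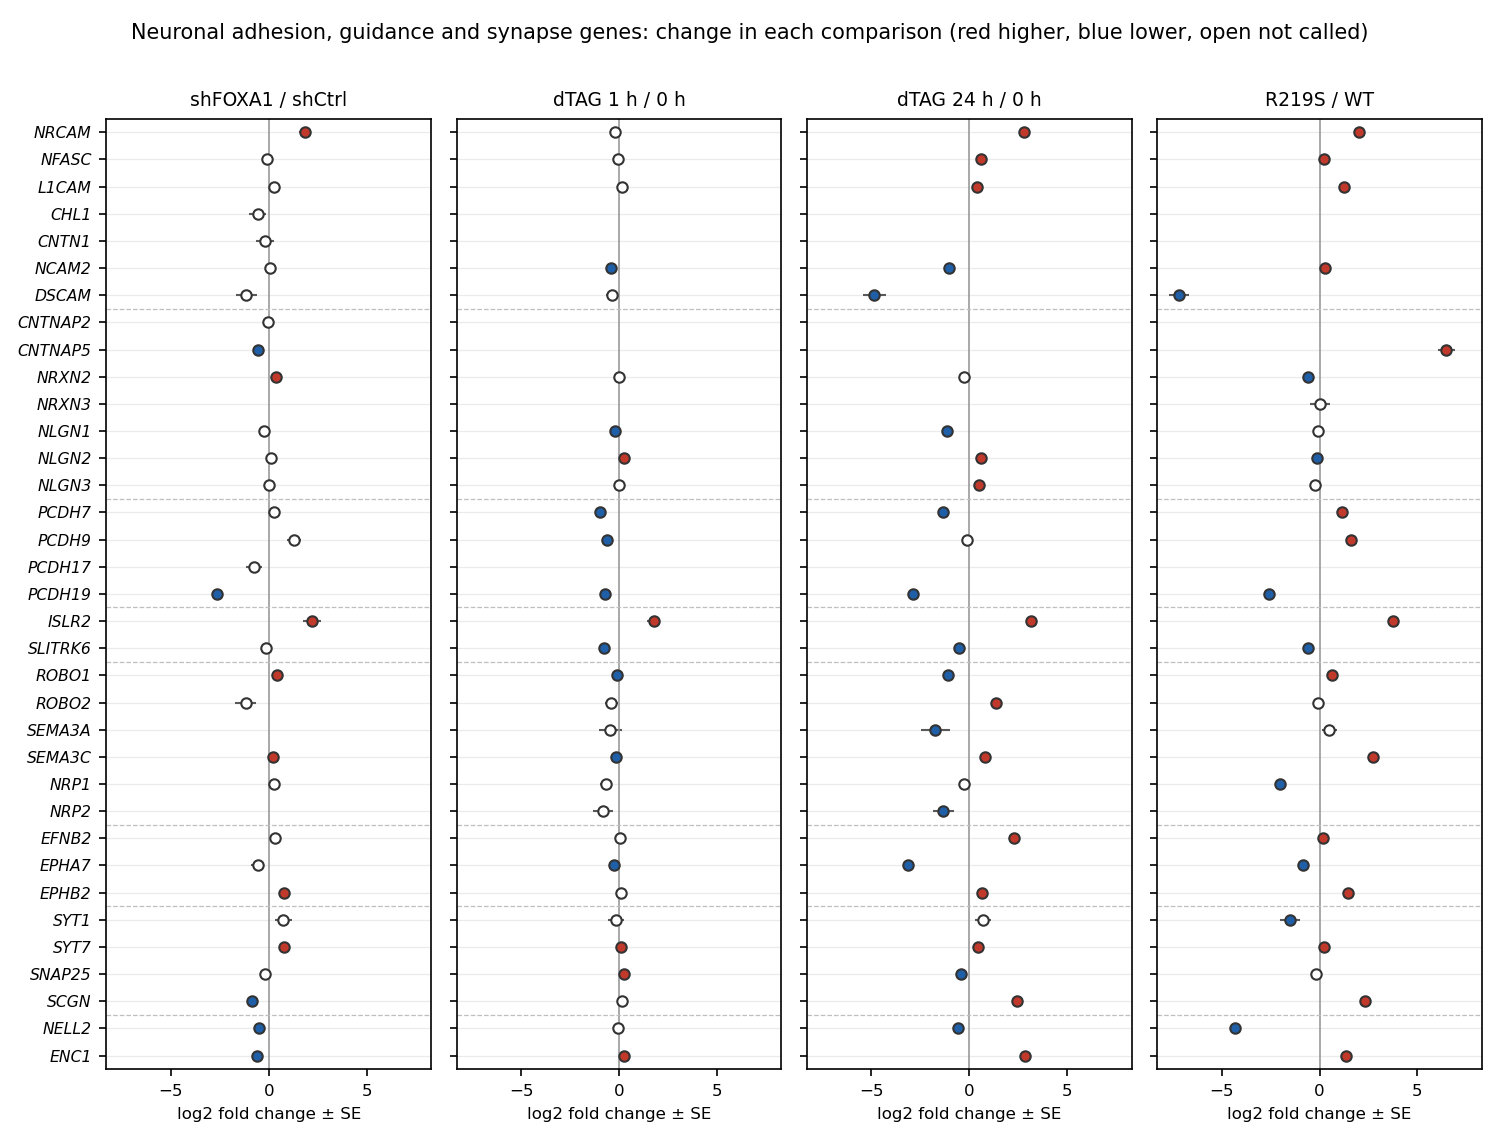
Log2 fold change with its standard error (horizontal axes) for the members tested in any of the 4 main comparisons (rows, dashed lines between roles); red circles were called higher, blue circles lower, and open circles were not called. The changes spread widest at 24 h and in R219S, in both directions; ISLR2 lies to the right of 0 and PCDH19 to the left in all 4 panels. The CNTNAP5 and DSCAM points in R219S and the DSCAM point at 24 h are fitted values that rest on 1 to 3 counts in one group.

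Of the 27 members tested in all 4 comparisons 6 (22.2%) were called in each, against 5.66% of the 12290 genes tested in all 4. PCDH19 fell and ISLR2 and SYT7 rose in each of them, while ROBO1, SEMA3C and ENC1 changed direction between comparisons. Some of these calls were fragile: at 1 h those of ROBO1, SYT7 and SEMA3C were lost in 9, 5 and 2 of 11 alternative settings. The SEMA3C call in the knockdown was lost in 2 of 10. Of the 27, 9 (33.3%) were called in 3 comparisons, against 20.5% of all genes, 8 in 2 (29.6% against 31.6%) and 4 in 1 (14.8% against 29.2%). Each of the 27 was called at least once, whereas 13.1% of all genes were called in no comparison. The 9 members not tested in every comparison included the 6 called in none: CHL1, CNTN1, NCAM1, CNTNAP2, NRXN3 and PCDH17. Since the list was drawn up from such changes, nothing is read from these shares. The 1 h and 24 h comparisons share the same 0 h libraries, so their values are given side by side only.

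Among the immunoglobulin superfamily adhesion genes, NRCAM made the largest rises. NRCAM, which anchors axons at nodes of Ranvier and binds other adhesion molecules of its class, stood at 12.0 and 11.7 CPM in the shCtrl libraries and at 32.7 and 53.5 CPM in shFOXA1. The rise was 1.86 ± 0.30 (adjusted p = 0.0304), and leaving out either shCtrl library ended the call (adjusted p = 0.335 and 0.366). Over the time course NRCAM was at 23.7 and 24.9 CPM at 0 h, 22.3 and 20.5 at 1 h, and 161 and 172 at 24 h. At 1 h the change was -0.19 ± 0.07 (adjusted p = 0.0618), and at 24 h it had risen by 2.78 ± 0.05 (adjusted p = 4.83e-28). R219S libraries had 53.3 and 54.2 CPM against 12.5 and 13.9 in WT, a rise of 2.04 ± 0.07 (adjusted p = 4.05e-117).

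The other adhesion genes of this class moved less, apart from DSCAM. NFASC, the neurofascin of axon initial segments, rose by 0.61 ± 0.04 at 24 h (adjusted p = 6.42e-14) and by 0.23 ± 0.04 in R219S (adjusted p = 6.32e-07). L1CAM, which promotes neurite outgrowth, was at 12.9 and 13.8 CPM in WT and 33.9 and 28.99 in R219S, a rise of 1.24 ± 0.08 (adjusted p = 2.34e-46), and it rose by 0.42 ± 0.07 at 24 h (adjusted p = 1.48e-05). Other genes overlap 11% of its exons and the strand setting of the counts is not given in the sources used here. NCAM2, a homophilic adhesion molecule, read 41.5 and 40.7 CPM at 0 h, 31.2 and 31.5 at 1 h, and 19.8 and 20.4 at 24 h. It fell by 0.39 ± 0.06 at 1 h (adjusted p = 9.04e-08) and by 1.03 ± 0.07 at 24 h (adjusted p = 3.71e-14), but was higher in R219S, at 28.6 and 29.3 CPM against 23.4 and 25.3 (0.26 ± 0.07, adjusted p = 0.000905). Without WT replicate 1 the R219S call was lost.

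DSCAM, a receptor of neurite self-avoidance, nearly disappeared. It was at 1.33 and 1.54 CPM at 0 h, 0.857 and 1.36 at 1 h, and 0.0306 and 0.0608 at 24 h. Those 24 h values are 3 counts against 99 at 0 h, a ratio of 31.3 (exact 95% counting interval 10.4 to 155). In R219S it had 1 count against 244 in WT, where it was at 3.99 and 3.38 CPM, a ratio of 176 (31.3 to 6.99e+03). These intervals cover counting error only. Both falls were called (adjusted p = 2.71e-08 and 5.86e-36), while the knockdown change was -1.15 ± 0.53 from a low level (adjusted p = 0.142).

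Synaptic adhesion genes moved in both directions. CNTNAP5, a neurexin-like protein of the CASPR family, was nearly silent in WT, at 0.0519 and 0.0375 CPM, and was at 4.39 and 4.63 CPM in R219S. That is 213 counts against 3, a ratio of 98.3 (33.2 to 480, adjusted p = 1.36e-44). In the knockdown table, where shCtrl read 6.56 and 6.64 CPM and shFOXA1 4.93 and 4.02, it fell by 0.56 ± 0.16 (adjusted p = 0.0273), a call that was lost in 4 of 10 alternative settings: with DESeq2 (adjusted p = 0.0755), without either shCtrl library and without shFOXA1 replicate 2. NRXN2, a presynaptic neurexin, rose by 0.35 ± 0.11 in the knockdown (adjusted p = 0.0387, lost in 6 of 10 alternative settings). It fell by 0.58 ± 0.07 in R219S (adjusted p = 7.9e-15).

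The neuroligins, postsynaptic partners of neurexins, did not move as one. NLGN1 was at 35.1 and 33.5 CPM at 0 h, 29.5 and 30.2 at 1 h, and 16.1 and 15.1 at 24 h, a change of -1.14 ± 0.07 at 24 h (adjusted p = 4.73e-14). Its fall at 1 h, -0.20 ± 0.06 (adjusted p = 0.0108), lost its call in 5 of 11 alternative settings: with DESeq2, without dTAG 0 h replicate 1, without either 1 h library, and with GC content and gene length corrected for (-0.07, adjusted p = 0.543). NLGN2, the neuroligin of inhibitory synapses, was at 95.2 and 93.9 CPM at 0 h, 111 and 113 at 1 h, and 143 at 24 h in both libraries. It rose by 0.24 ± 0.04 at 1 h (adjusted p = 5.04e-07) and by 0.60 ± 0.04 at 24 h (adjusted p = 1.56e-13). Its level in R219S was slightly lower, at 162 and 159 CPM against 173 and 181 (-0.14 ± 0.04, adjusted p = 0.00148). NLGN3 rose by 0.49 ± 0.19 at 24 h (adjusted p = 0.0342), a call lost with DESeq2 and without 3 of the 4 libraries in turn.

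Non-clustered protocadherins, calcium-dependent adhesion proteins of the cadherin superfamily, included the most regular fall. PCDH19, which when mutated causes an epilepsy of girls, was at 6.33 and 5.17 CPM in shCtrl and at 0.634 and 1.19 in shFOXA1, a change of -2.65 ± 0.27 (adjusted p = 6.31e-05). It went from 56.4 and 55.9 CPM at 0 h to 34.6 and 33.7 at 1 h and 7.63 in both 24 h libraries. The falls were -0.72 ± 0.05 (adjusted p = 5.75e-20) and -2.88 ± 0.08 (adjusted p = 3.32e-24). R219S libraries read 1.49 and 1.44 CPM against 8.51 and 9.05 in WT (-2.57 ± 0.18, adjusted p = 2.13e-41). Each of these 4 calls held in every alternative setting run.

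PCDH7 and PCDH9 showed other courses. PCDH7 was at 16.5 and 16.7 CPM at 0 h, 8.45 and 8.74 at 1 h, and 7.20 and 6.05 at 24 h. It fell by 0.95 ± 0.10 at 1 h (adjusted p = 3.71e-13) and by 1.32 ± 0.11 at 24 h (adjusted p = 4.64e-12). Its level in R219S was higher, at 8.17 and 8.25 CPM against 3.71 and 3.75 (1.14 ± 0.14, adjusted p = 2.27e-14). PCDH9 dipped at 1 h, from 14.4 and 16.7 CPM to 9.61 and 10.6 (-0.62 ± 0.10, adjusted p = 4.15e-07). By 24 h it was at 15.6 and 13.2 CPM, higher than at 1 h by 0.51 ± 0.10 (adjusted p = 3.8e-05). In R219S it rose from 1.61 and 2.29 CPM to 5.28 and 6.11 (1.59 ± 0.18, adjusted p = 3.85e-16). In shFOXA1 it read 9.14 and 18.1 CPM against 5.66 and 5.44 and was not called (1.29 ± 0.38, adjusted p = 0.0902), though 5 of 10 alternative settings called it.

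The leucine-rich repeat membrane proteins ISLR2 and SLITRK6 went opposite ways. ISLR2, also known as LINX, which takes part in axon extension and branching, was a low transcript that rose throughout. It was at 0.231 and 0.190 CPM in shCtrl and 0.721 and 1.25 in shFOXA1 (2.21 ± 0.48, adjusted p = 0.00589). From 0.354 and 0.683 CPM at 0 h it reached 1.89 and 1.69 at 1 h and 4.75 and 4.56 at 24 h. These rises were 1.77 ± 0.34 (adjusted p = 2.8e-05) and 3.15 ± 0.26 (adjusted p = 7.54e-12). R219S cells had 6.02 and 6.46 CPM against 0.467 and 0.451 in WT (3.75 ± 0.24, adjusted p = 1.24e-44). SLITRK6, a neurite-modulating protein of the inner ear and also a surface antigen of bladder tumours, fell early. It was at 47.2 and 44.9 CPM at 0 h, 28.2 and 26.7 at 1 h and 32.5 and 32.4 at 24 h, with changes of -0.75 ± 0.06 (adjusted p = 1.44e-18) and -0.51 ± 0.06 (adjusted p = 2.09e-08). Between 1 h and 24 h it rose by 0.24 ± 0.06 (adjusted p = 0.00142). R219S cells had 48.5 and 51.3 CPM against 77.6 and 74.2 (-0.61 ± 0.05, adjusted p = 2.07e-27).

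**Figure D2:**
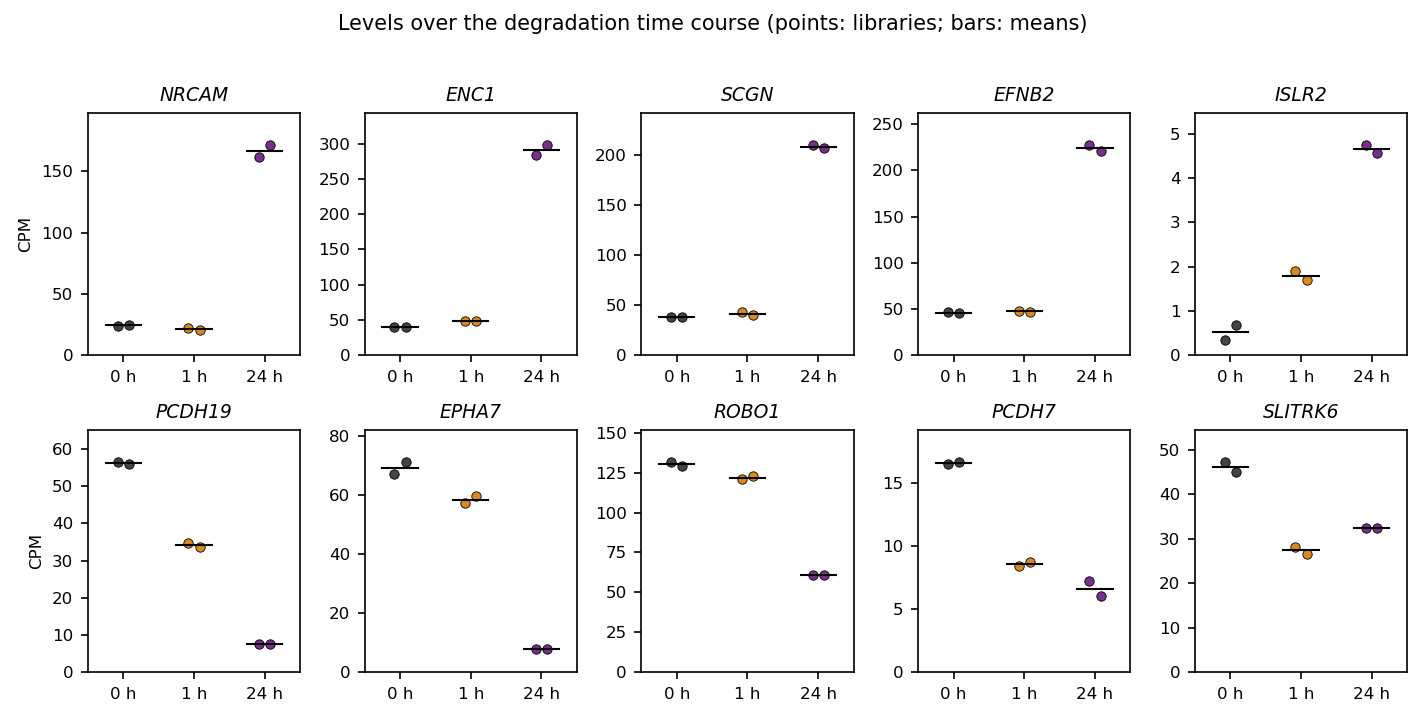
Level in CPM (vertical axes, each from 0) of 10 members at 0 h, 1 h and 24 h of degradation; points are libraries and bars are means of 2. NRCAM, SCGN and EFNB2 stay near their 0 h level at 1 h, and ENC1 is slightly above it. All of these stand far above it at 24 h, as with NRCAM at 161 and 172 CPM. PCDH7 has most of its fall by 1 h, and SLITRK6 is lowest at 1 h.

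Of the guidance ligands, SEMA3C, a secreted class 3 semaphorin with a known role in prostate cancer growth, had the highest level per kilobase in shCtrl and at 0 h, though not in WT. In shFOXA1 it was at 672 and 724 CPM against 581 and 607 in shCtrl (0.23 ± 0.06, adjusted p = 0.0175), a call lost without either shCtrl library. It was at 312 and 316 CPM at 0 h, 288 and 284 at 1 h, and 541 and 546 at 24 h. The change was -0.14 ± 0.03 at 1 h (adjusted p = 0.00025), not called without dTAG 1 h replicate 2 or with GC content and gene length corrected for (adjusted p = 0.0978), and 0.79 ± 0.03 at 24 h (adjusted p = 2.3e-18). R219S libraries stood at 126 and 123 CPM against 19.5 and 17.8 in WT, a rise of 2.73 ± 0.06 (adjusted p = 7.1e-224). SEMA3A, the classic axon-repelling semaphorin, fell by 1.73 ± 0.72 at 24 h from 0.354 and 0.370 CPM to 0.0306 and 0.182. That call (adjusted p = 0.0491) was lost in 7 of 9 alternative settings.

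The Slit receptors and the semaphorin co-receptors also diverged. ROBO1, the main Slit receptor, was at 111 and 102 CPM in shCtrl and at 137 and 144 in shFOXA1 (0.40 ± 0.07, adjusted p = 0.00102). At 0 h it was at 132 and 129 CPM, at 1 h at 121 and 123, and at 24 h at 61.04 and 60.96, a change of -1.09 ± 0.04 at 24 h (adjusted p = 2.32e-19). The 1 h change was -0.10 ± 0.04 (adjusted p = 0.0422), lost in 9 of 11 alternative settings. R219S cells were higher again, at 103 and 104 CPM against 65.8 and 64.8 (0.66 ± 0.05, adjusted p = 1.4e-37). ROBO2, a second Slit receptor, rose at 24 h from 0.974 and 1.45 CPM to 2.91 and 3.28 (1.35 ± 0.24, adjusted p = 2.18e-05). Its knockdown change, at a level under the threshold, was -1.17 ± 0.55 and was not called (adjusted p = 0.142). The semaphorin co-receptor NRP1 fell in R219S from 2.83 and 2.40 CPM to 0.467 and 0.817 (-2.0 ± 0.30, adjusted p = 1.68e-10). NRP2, under the level threshold, fell at 24 h by 1.33 ± 0.53 (adjusted p = 0.0405, lost in 7 of 10 alternative settings).

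At 24 h the ephrin ligand EFNB2 and the receptor EPHB2 rose, and the receptor EPHA7 fell. EFNB2, a transmembrane ephrin ligand of vessels and nerves, was at 46.9 and 45.4 CPM at 0 h, 48.4 and 46.6 at 1 h, and 228 and 221 at 24 h (2.28 ± 0.04, adjusted p = 1.2e-27). R219S cells had 28.6 and 29.5 CPM, against 25.8 and 25.6 (0.18 ± 0.07, adjusted p = 0.0212), lost with DESeq2 and without 3 libraries in turn. An antisense gene covers 26.2% of the EFNB2 exons, and reads of both cannot be told apart if strand was not used. EPHA7, a receptor that repels axons, went from 67.1 and 71.2 CPM to 57.4 and 59.5 at 1 h and 7.81 and 7.87 at 24 h. The falls were -0.24 ± 0.05 (adjusted p = 2.9e-05) and -3.14 ± 0.07 (adjusted p = 1.45e-25). It also fell in R219S, from 23.6 and 20.7 CPM to 12.6 and 12.7 (-0.82 ± 0.09, adjusted p = 2.36e-19). In shFOXA1 its libraries read 93.5 and 56.7 CPM against 112 in both shCtrl libraries (-0.57 ± 0.32, adjusted p = 0.344). EPHB2, a receptor for B-class ephrins, rose in the knockdown from 5.89 and 4.33 CPM to 7.41 and 10.2 (0.79 ± 0.20, adjusted p = 0.0151, lost without shCtrl replicate 2). At 24 h it rose from 27.9 and 26.4 CPM to 42.5 and 42.7 (0.65 ± 0.06, adjusted p = 3.67e-10). In R219S it rose from 13.0 and 12.2 CPM to 33.5 and 36.3 (1.47 ± 0.08, adjusted p = 3.5e-63).

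Vesicle release genes were led by the calcium sensor SCGN (secretagogin), which binds SNARE proteins in endocrine cells. In shFOXA1 it was at 3.98 and 6.13 CPM against 8.43 and 9.71 in shCtrl (-0.85 ± 0.19, adjusted p = 0.0097, lost without shCtrl replicate 2). At 0 h it was at 38.1 and 38.3 CPM, at 1 h at 42.8 and 40.6, and at 24 h at 210.1 and 207, a rise of 2.45 ± 0.04 at 24 h (adjusted p = 4.66e-28). Its levels in R219S were 18.1 and 18.7 CPM against 3.29 and 4.17 (2.33 ± 0.12, adjusted p = 1.87e-70). SYT7, a slow calcium sensor of exocytosis, was at 123 and 120.3 CPM in shFOXA1 against 72.0 and 70.1 (0.77 ± 0.06, adjusted p = 1.17e-05). It was at 194 and 180.1 CPM at 0 h, 201 in both 1 h libraries, and 258 and 256 at 24 h (0.46 ± 0.04, adjusted p = 2.33e-11). Its 1 h change of 0.11 ± 0.03 (adjusted p = 0.0153) was 0.01 with GC content and gene length corrected for (adjusted p = 0.893), and the call was also lost with DESeq2, without dTAG 0 h replicate 2 and without either 1 h library. In R219S it was at 141 and 140.3 CPM against 118 and 123 (0.22 ± 0.04, adjusted p = 9.24e-07). SNAP25, a SNARE of the plasma membrane, rose by 0.24 ± 0.09 at 1 h (adjusted p = 0.0346, lost in 5 of 11 alternative settings) and fell by 0.41 ± 0.09 at 24 h (adjusted p = 0.000552). SYT1, the fast calcium sensor of synapses, fell in R219S from 0.648 and 0.863 CPM to 0.327 and 0.195 (-1.52 ± 0.51, adjusted p = 0.00548). The call was lost with DESeq2, without WT replicate 2 and without R219S replicate 2.

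The remaining members, NELL2 and ENC1, made some of the largest changes. NELL2, a secreted ligand of ROBO3 in commissural axons, was at 108 and 105 CPM in WT and at 4.39 and 6.19 in R219S, a change of -4.31 ± 0.08 (adjusted p = 8.91e-260). In shFOXA1 it was at 48.4 and 40.2 CPM against 62.3 and 63.9 (-0.51 ± 0.09, adjusted p = 0.00158). At 24 h it was at 18.7 and 22.1 CPM against 31.2 and 29.7 at 0 h (-0.57 ± 0.08, adjusted p = 2.7e-07). ENC1, an actin-binding Kelch protein of differentiating neurons, was at 42.6 and 34.6 CPM in shFOXA1 against 61.3 and 56.3 (-0.61 ± 0.10, adjusted p = 0.0015). It rose from 40.7 and 40.1 CPM at 0 h to 48.0 and 48.7 at 1 h (0.26 ± 0.05, adjusted p = 0.000111). At 24 h it was at 284 and 298 CPM (2.85 ± 0.04, adjusted p = 6.41e-30). R219S had 138 and 132 CPM against 55.3 and 51.0 in WT (1.34 ± 0.05, adjusted p = 2.7e-115).

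**Figure D3:**
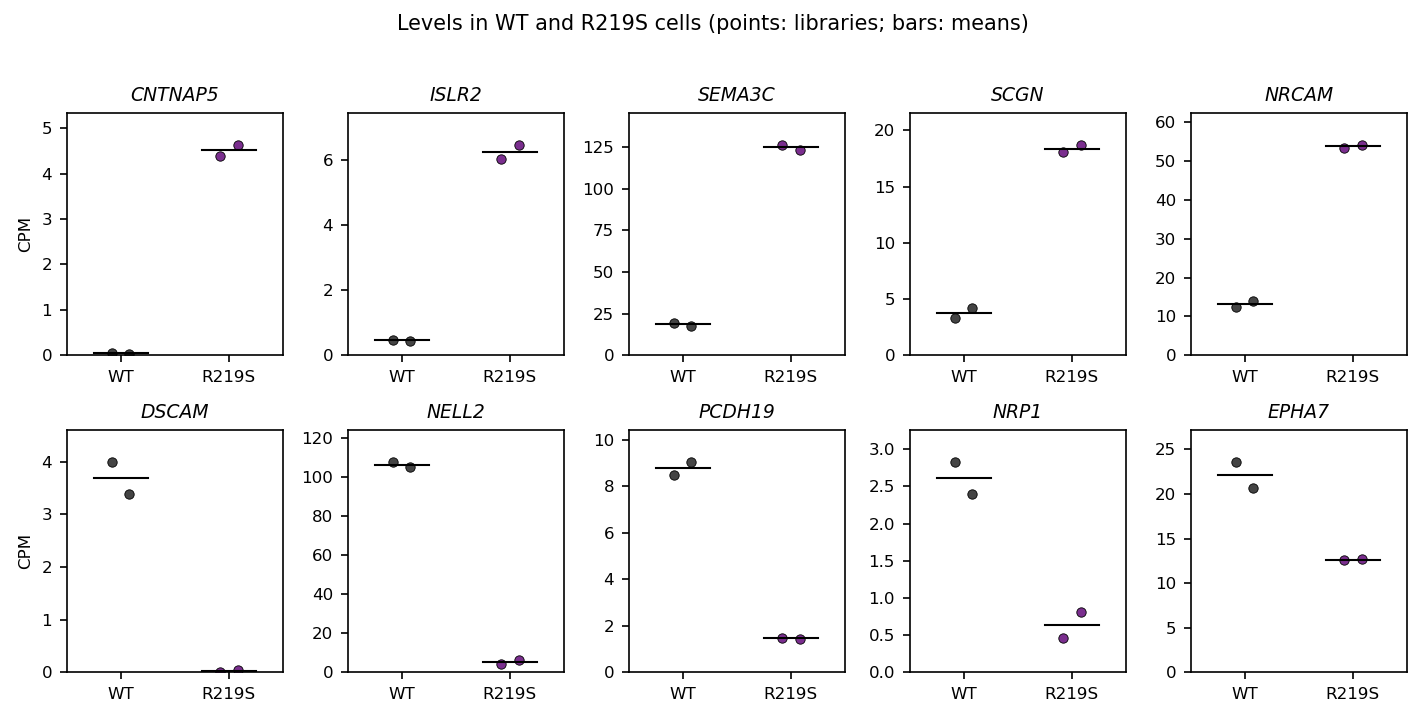
Level in CPM (vertical axes, each from 0) of 10 members in WT and R219S; points are libraries and bars are means of 2. The upper row holds genes higher in R219S, such as SEMA3C at 126 and 123 CPM against 19.5 and 17.8, and the lower row genes lower in R219S, such as NELL2 at 4.39 and 6.19 CPM against 108 and 105; no groups overlap.

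Marker genes of other cell types were read beside the R219S changes. Of the 6 fibroblast markers, COL3A1, DCN and LUM rose and COL1A1 fell in R219S. Their summed level was 215 to 224 CPM in WT, 509 to 520 CPM in R219S and 19.1 to 31.2 CPM in all other libraries. COL3A1 went from between 5.86 and 7.03 CPM to between 276 and 281 CPM, while COL1A2 was at 0 in all 4 libraries. The neuron marker MAP2 fell by 3.24 in R219S (from 14.3 to 15.1 CPM down to 1.40 to 1.67 CPM), and DCX, ELAVL4 and STMN2 were at 0 in both groups. Of the 8 neuroendocrine markers, SCG2 and SYP rose and ENO2, CHGB and SCG3 fell in R219S, and their sum went from 81.2 to 89.1 CPM in WT to 50 to 51 CPM. Of the 9 luminal markers, KRT8 and KRT18 rose and 6 fell in R219S, TMPRSS2 and KLK3 among them. The part of these markers in the members' changes was not tested.

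From 1 h to 24 h, tested in the joint fit of the 6 time-course libraries, 24 of 29 members were called (15 higher, 9 lower), against 45.7% of all genes (21.2% higher, 24.5% lower). The largest rises were those of NRCAM (2.96 ± 0.05, adjusted p = 4e-40), ENC1 (2.59 ± 0.04), SCGN (2.32 ± 0.04), EFNB2 (2.24 ± 0.04) and ROBO2 (1.75 ± 0.26). The largest falls were those of EPHA7 (-2.90 ± 0.07, adjusted p = 7.57e-35), PCDH19 (-2.16 ± 0.08), ROBO1 (-0.998 ± 0.041) and NLGN1 (-0.94 ± 0.07), besides DSCAM, with 3 counts against 75 at 1 h (ratio 24.3, 7.99 to 120). ISLR2 rose by a further 1.38 ± 0.21 and PCDH7 fell by a further 0.38 ± 0.12, a call lost with DESeq2 and without dTAG 24 h replicate 2. SEMA3C (0.93), NFASC (0.65), EPHB2 (0.53), NLGN3 (0.50), SYT7 (0.35), NLGN2 (0.35) and L1CAM (0.26) also rose. SNAP25 (-0.65), NCAM2 (-0.64) and NELL2 (-0.54) also fell. The highest adjusted p among these was 0.0326, for NLGN3, whose call was lost in 6 of 12 alternative settings, and the L1CAM call was lost without dTAG 1 h replicate 1.

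The 24 h change was set against the knockdown change, since both designs aim to lower FOXA1 and they share no library. FOXA1 transcripts fell by 0.47 in the knockdown, and RNA counts do not show how far the protein fell in either design. An interaction fit of the 8 libraries called 15 of 34 members (6 higher, 9 lower at 24 h than in the knockdown), against 22.7% of all genes (9.45% higher, 13.2% lower). Among members tested in both comparisons, 10 were called in both, 90.9% of the knockdown calls and 43.5% of the 24 h calls, against 68.9% and 34.6% over all genes. Of the 10, 7 went the same way (70%, against 80.1% of all genes called in both) and ROBO1, SCGN and ENC1 the opposite way. For ENC1 the 24 h change exceeded the knockdown change by 3.47 ± 0.11 (adjusted p = 1.29e-11), for SCGN by 3.31 ± 0.18 (adjusted p = 7.88e-08), and for ROBO1 the difference was -1.49 ± 0.08 (adjusted p = 1.92e-11). EFNB2 differed by 1.97 ± 0.24 (adjusted p = 0.00328), ROBO2 by 2.53 ± 0.56 (adjusted p = 0.00194) and EPHA7 by -2.55 ± 0.40 (adjusted p = 0.0148, lost in 6 of 13 alternative settings). In the knockdown ROBO2 was under the level threshold, with 31 counts in shCtrl and 13 in shFOXA1, and was not called. The 24 h changes of PCDH7, NCAM2 and NLGN1 lay below their knockdown changes, by -1.56 ± 0.15, -1.10 ± 0.09 and -0.90 ± 0.13. Smaller called differences were those of SEMA3C (0.57), NLGN2 (0.47), NRXN2 (-0.62, adjusted p = 0.0266), SLITRK6 (-0.34) and SYT7 (-0.30), and DSCAM was also called, from 3 counts at 24 h. The NRXN2 call was lost in 5 of 13 alternative settings, and those of SLITRK6 and SYT7 without dTAG 0 h replicate 1. The differences for PCDH19, -0.21 ± 0.26 (adjusted p = 0.619), ISLR2, 0.96 ± 0.60 (adjusted p = 0.289), and NRCAM, 0.92 ± 0.37 (adjusted p = 0.174), were not called, which does not show that the changes were equal.

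**Figure D4:**
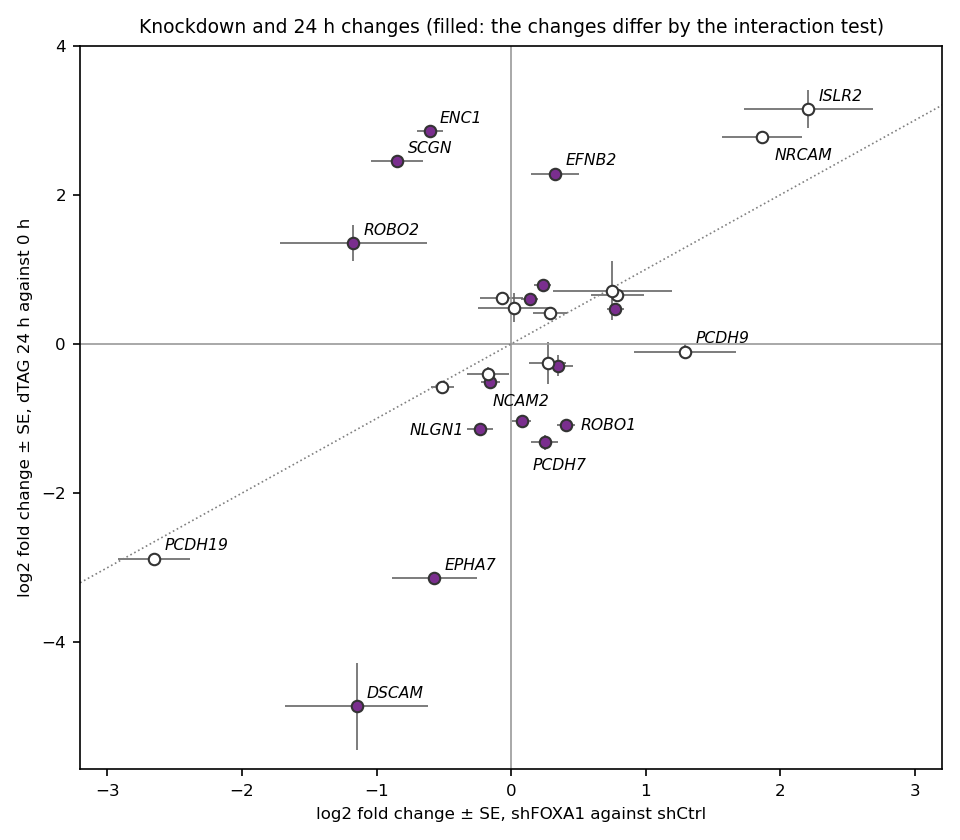
Log2 fold change in the knockdown (horizontal axis) and at 24 h of degradation (vertical axis), with standard errors, for the members tested in both; filled points differ between the comparisons by the interaction test and the dotted line marks equal changes. ENC1 and SCGN lie at upper left, higher at 24 h and lower in the knockdown, while PCDH19, at -2.65 and -2.88, lies near the dotted line. The DSCAM point rests on 3 counts at 24 h.

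The R219S change was set against the 24 h change in the same way, again without shared libraries. The interaction fit called 22 of 31 members (11 higher, 11 lower), against 56.0% of all genes (30.0% higher, 25.9% lower). Among members tested in both comparisons, 19 were called in both, 82.6% of the R219S calls and 79.2% of the 24 h calls, against 61.7% and 66.8% over all genes. Of the 19, 15 went the same way (78.9%, against 60.7% of all genes called in both). NCAM2, NLGN2, PCDH7 and ROBO1 went opposite ways, with differences of 1.28 ± 0.10 (adjusted p = 7.34e-20), -0.75 ± 0.06 (adjusted p = 9.26e-20), 2.45 ± 0.17 (adjusted p = 6.8e-22) and 1.75 ± 0.06 (adjusted p = 1.49e-39). NELL2 fell further in R219S, by -3.74 ± 0.12 (adjusted p = 3.15e-39), and SEMA3C rose further, by 1.93 ± 0.06 (adjusted p = 1.08e-42). The 24 h changes of EPHA7 and EFNB2 were the larger ones, with differences of 2.31 ± 0.12 (adjusted p = 9.07e-30) and -2.11 ± 0.08 (adjusted p = 7.8e-40). The difference was also positive for SEMA3A (2.22), PCDH9 (1.69), NLGN1 (1.06), EPHB2 (0.81) and L1CAM (0.81), and for CNTNAP5, nearly silent in WT and at 0 h. It was negative for SYT1 (-2.24), NRP1 (-1.75), ENC1 (-1.52), ROBO2 (-1.43), NRCAM (-0.75), NLGN3 (-0.74), NFASC (-0.39) and SYT7 (-0.24). Of these, SEMA3A, SYT1 and NLGN3 lost their call in some alternative settings. For SCGN (-0.13 ± 0.12, adjusted p = 0.394) and PCDH19 (0.30 ± 0.21, adjusted p = 0.238) no difference was called. The knockdown and R219S shared 12 called members, 100% of the knockdown's and 50% of those in R219S, against 70.3% and 33.7% over all genes. Of these, 8 went the same way (66.7%, against 61.5% of all genes called in both), and CNTNAP5, NRXN2, SCGN and ENC1 went opposite ways, a contrast that was not tested.

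The other genes of the same pathways, 153 in 6 lists, were counted in each fit. In the knockdown 44 of 119 tested (37%) were called, 33 higher and 11 lower, against 23.6% of all genes (11.3% higher, 12.3% lower). Of 18 further ephrins and Eph receptors 3 rose, EFNA1 (0.61), EFNB3 (0.40) and EPHB4 (0.37), and EPHB3 fell (-0.32). Among 24 semaphorins and plexins 8 rose, led by SEMA3F (1.73), SEMA4A (0.67) and SEMA4G (0.59), and SEMA6A (-0.87) and PLXNA2 (-0.45) fell. Of 17 Slit, netrin and repulsive guidance genes 6 rose, led by RGMA (1.66), NTNG2 (1.54) and NTN5 (0.98), and the Robo ligand SLIT2 fell (-1.61). Of 23 other adhesion genes 9 rose, led by SLITRK4 (1.11), LRRTM4 (0.99) and CNTN4 (0.86), and FLRT3 (-1.12) and SLITRK3 (-0.98) fell. PCDH1 (0.36) rose among 6 protocadherins. Of 31 release genes 6 rose, led by SYT12 (1.65), SYT17 (0.90) and DOC2A (0.52), and 5 fell, led by SYT5 (-0.75), RIMS1 (-0.64) and SYN1 (-0.50).

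At 1 h, 40 of 118 of these pathway genes (33.9%) were called, 27 higher and 13 lower, against 19.8% of all genes (10.7% higher, 9.12% lower). The A-class ephrin ligands EFNA3 (1.06), EFNA4 (0.78) and EFNA1 (0.65) led 6 rises among 17 genes of their list, and the receptors EPHA2 (-0.50), EPHA6 (-0.40) and EPHA5 (-0.14) fell. Of 24 semaphorins and plexins 9 rose, led by SEMA3F (0.54), SEMA6B (0.44) and SEMA3B (0.40), while SEMA3D (-0.37) and SEMA6A (-0.24) fell. The netrin receptor UNC5B rose (0.37) and UNC5C (-0.41), RGMB (-0.31) and SRGAP1 (-0.25) fell, of 16. Of 21 adhesion genes only FLRT3 (-1.25) and SLITRK1 (-0.41) were called. PCDH10 (-1.60) and PCDH11X (-1.55) fell and PCDH1 (0.31) rose, of 6. Of 34 release genes 10 rose, led by DOC2A (0.32), SYNGR1 (0.31) and SV2A (0.29), and SYT4 fell (-0.20). Across all genes, 1 h changes rose with GC content (Spearman's rho 0.323 over 18705 genes, which are not independent replicates). The rho was 0.17 at 24 h, 0.137 in the knockdown and -0.0123 in R219S. With GC content and gene length corrected for, 14.3% of all genes were called at 1 h, against 19.8% in the main fit.

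At 24 h, 70 of 119 (58.8%) were called, 46 higher and 24 lower, against 46.9% of all genes (22.1% higher, 24.8% lower). EFNA1 (1.07), EFNA3 (0.77) and EFNA4 (0.72) led 5 rises among 18 ephrin genes, and EPHA6 (-1.73), EPHA2 (-1.53) and EPHA3 (-1.44) led 5 falls. Of 24 semaphorins and plexins 14 rose, led by PLXNB1 (1.08), SEMA6B (1.03) and PLXNC1 (0.92), and 5 fell, led by SEMA3D (-1.71), SEMA3E (-1.49) and SEMA5B (-1.18). SLIT2 (2.06), UNC5B (1.58) and UNC5A (1.10) led 7 rises among 16 Slit and netrin genes, and UNC5C fell (-0.24). Of 20 adhesion genes ALCAM (0.94), CNTN3 (0.67) and PTPRF (0.50) led 4 rises, and FLRT2 (-1.68), LRRTM4 (-1.29) and SLITRK3 (-1.19) led 5 falls. PCDH18 (1.10), PCDH12 (1.08) and PCDH1 (0.80) rose and PCDH10 (-1.60) fell, of 6. Of 35 release genes SYT3 (1.60), SYT17 (1.07) and SYT12 (0.92) led 13 rises, and UNC13B (-2.12), RAB3B (-1.45) and SYT4 (-1.43) led 7 falls.

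In R219S, 86 of 116 (74.1%) were called, 42 higher and 44 lower, against 62.1% of all genes (30.5% higher, 31.6% lower). EPHA3 (2.43), EFNA5 (0.78) and EPHA1 (0.63) led 8 rises among 17 ephrin genes, and EPHA4 (-3.49), EPHA2 (-0.93) and EPHA6 (-0.51) led 5 falls. Of 23 semaphorins and plexins SEMA3D (2.87), PLXNA2 (1.46) and SEMA6B (1.34) led 9 rises, and SEMA3E (-2.33), SEMA5B (-1.86) and SEMA6A (-0.83) led 10 falls. UNC5C (2.67), NTN1 (1.35) and UNC5B (0.85) led 5 rises among 17 Slit and netrin genes, and NTN4 (-3.34), SLIT2 (-1.55) and ROBO3 (-1.01) led 9 falls. Of 19 adhesion genes 9 rose, with PTPRD at 84 counts against 2 in WT (ratio 58.1, 15.6 to 488), then FLRT3 (1.88) and CADM1 (1.45). The 6 falls included those of CADM2 (-4.69) and ALCAM (-0.30). PCDH10 (1.87) and PCDH1 (1.06) rose and PCDH11X (-2.48) and PCDH20 (-1.91) fell, of 7. Of 33 release genes SYT12 (2.76), VAMP1 (0.75) and UNC13A (0.47) led 9 rises. The 12 falls were led by DOC2B, with 2 counts against 35 (ratio 12.6, 3.25 to 109), RAB3B (-2.94) and UNC13B (-2.32).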

How the data were processed

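Raw read counts per gene, deposited by the authors as whole numbers without normalization, were used for 14 libraries. Tools named in the submitters' processing notes are STAR, DESeq2 and featureCounts, with hg19 as build; versions, annotation and strand setting are not given in the sources used here. Identifiers were matched to symbols for 51995 of 57904 features (knockdown) and 51996 of 57905 (time course); the R219S table uses symbols (20243 features, of which 26 had been turned into dates). The 0 h counts were identical in both time-course tables. Per-sample columns not used numbered 0. The quasi-likelihood F test of edgeR 4.0.16 (R 4.3.3) was run on the libraries of each comparison alone, after filterByExpr and TMM and with robust estimation, Benjamini-Hochberg adjustment over all genes tested and a threshold of 0.05. Standard errors were obtained by dividing the absolute log2 fold change by √F. CPM values are TMM-scaled within a table. Exon lengths and overlaps are from GENCODE on GRCh38. The method was tested on simulated data. Alternatives were DESeq2 1.42.0, other filters and scaling, a 1.5-fold rule, a replicate block, each library left out and, added after seeing the data, a correction for GC content and length. The members and gene lists were chosen with earlier results of these data known. All called members are named, with values in every library for the 10 largest changes in a comparison and for members called in 3 or 4 main comparisons; of each pathway list, up to 3 called genes in each direction are named, and a few items are not reported here. Shares of all genes called in several comparisons are over genes tested in each, matched by symbols that occur once per table.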

Additional observations from a re-analysis of the deposited data

Results flagged for a closer look

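The 7 member results given here were picked out because a gene was called in opposite directions in comparisons that share no library, and the interaction test called the difference. Between 24 h of degradation and the knockdown, the differences in log2 fold change were 3.47 for ENC1 and 3.31 for SCGN, both higher at 24 h and lower in the knockdown, and -1.49 for ROBO1, lower at 24 h and higher in the knockdown. Between R219S and 24 h, they were 2.45 for PCDH7, 1.75 for ROBO1 and 1.28 for NCAM2, all higher in R219S and lower at 24 h, and -0.75 for NLGN2, lower in R219S and higher at 24 h. The tables compared also differ in the cells and the treatment, which cannot be told apart from these differences.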

How the results depend on the processing

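No called member changed direction under any alternative run, and of the calls, 6 of 12 in the knockdown, 9 of 14 at 1 h, 22 of 25 at 24 h, 21 of 24 in R219S and 21 of 24 from 1 h to 24 h held under all of them other than the 1.5-fold rule, as did 11 of 15 and 19 of 22 in the interaction fits. A rule of at least 1.5-fold left 7 of 12 calls in the knockdown, 5 of 14 at 1 h and 15 of 24 from 1 h to 24 h, since small changes are then not counted, and DESeq2 called 9 members at 1 h; the cause was not tested. Leaving out each library in turn gave 6 to 19 calls in the knockdown (6 without shCtrl replicate 2, 19 without shFOXA1 replicate 1), 9 to 13 at 1 h (9 without dTAG 1 h replicate 2), 23 to 24 at 24 h, 22 to 24 in R219S, 22 to 26 from 1 h to 24 h, and 11 to 20 and 20 to 23 in the interaction fits. A lone library is then assumed to vary like the other group. Same-numbered replicates did not deviate together (correlations from -0.041 to 0.0583), so the numbers were not taken as pairs; with the replicate block the counts were 13, 13, 25, 24, 24, 18 and 22. Members under about 1 CPM, such as SEMA3A, NRP2 and SYT1, are limited by depth, and 2 libraries a group limit every estimate of spread.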
